A study of Mus musculus with 8 samples.

Results

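The simple epithelial keratin genes Krt7, Krt8, Krt18, Krt19 and Krt20 and the uroplakin genes Upk1a, Upk1b, Upk2, Upk3a and Upk3b were examined in the genital tubercle, the embryonic outgrowth that later forms the penis or the clitoris. All probe sets whose platform symbol was 1 of these 10 genes alone were taken, which gave 16 of the 45101 probe sets of the array, 7 for the keratins and 9 for the uroplakins. The groups were 4 male and 4 female FVB/N mouse embryos at 14 days post coitum (Theiler stage 22), with the microdissected tubercle region of each hybridized to its own Affymetrix MOE430 array after 2 rounds of RNA amplification. The labels state that samples were not pooled, name no treatment or mutant allele, and do not say whether embryos shared a litter or a processing day, so each p-value reflects only how far these arrays scatter, and that scatter may be partly technical. The question of the series is how the male and the female tubercle differ in gene expression at this stage.

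Keratins are intermediate filament proteins, and a filament is built from pairs of a type I and a type II chain. Krt8 and Krt18 are the type II and type I partners of the primary pair of simple epithelia, Krt7 is a type II and Krt19 and Krt20 are type I chains of ductal, urinary and gut epithelia. Uroplakins are the membrane proteins of the plaques on the luminal face of the urothelium: the tetraspanins Upk1a and Upk1b pair with the single-span proteins Upk2 and Upk3a or Upk3b. The tubercle contains the urethral plate epithelium, which comes from the endoderm of the cloaca, and a covering surface ectoderm, around a core of mesenchyme.

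The promoters of Krt8 and Krt18 are shown because these adjacent genes carried the largest differences among the simple epithelial keratins, and that of Krt7 because it lies on the same chromosome and missed the threshold narrowly. Each is the RefSeq sequence of GRCm38.p6 over the 300 bases that span the annotated start, printed in the direction of transcription: Krt8 on the minus strand at chr15:102004293-102004592, Krt18 on the plus strand at chr15:102027966-102028265 and Krt7 on the plus strand at chr15:101412153-101412452. Capitals mark matches, on either strand, to 6 short motifs that are spelled out after the sequences.
Krt8: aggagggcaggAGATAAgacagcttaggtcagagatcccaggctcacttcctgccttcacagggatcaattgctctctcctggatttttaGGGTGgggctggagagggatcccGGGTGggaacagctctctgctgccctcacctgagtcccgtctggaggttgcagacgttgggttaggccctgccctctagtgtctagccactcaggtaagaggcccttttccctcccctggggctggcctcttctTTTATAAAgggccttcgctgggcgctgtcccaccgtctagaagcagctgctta
Krt18: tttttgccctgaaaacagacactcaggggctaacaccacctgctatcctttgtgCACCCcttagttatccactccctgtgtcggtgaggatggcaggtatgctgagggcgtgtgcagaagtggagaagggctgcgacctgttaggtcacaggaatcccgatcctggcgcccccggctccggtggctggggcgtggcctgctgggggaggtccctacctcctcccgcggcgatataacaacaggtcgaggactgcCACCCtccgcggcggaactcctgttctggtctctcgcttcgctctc
Krt7: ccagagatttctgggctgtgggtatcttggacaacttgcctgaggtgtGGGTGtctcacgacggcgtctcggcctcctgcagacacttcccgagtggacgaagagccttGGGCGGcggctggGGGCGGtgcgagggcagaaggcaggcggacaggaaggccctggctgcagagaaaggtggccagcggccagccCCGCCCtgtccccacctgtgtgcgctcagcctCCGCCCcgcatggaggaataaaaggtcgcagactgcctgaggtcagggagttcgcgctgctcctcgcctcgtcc
In the Krt8 window the GATA motif AGATAA began 239 bases before the annotated start. The TATA box motif TATAAA began 1 base before it and overlapped a match of the same motif on the opposite strand, and the CACCC box motif, whose letters are its name, matched at 2 places. The Krt18 window held 2 CACCC matches and no other searched motif. The Krt7 window held 4 matches to the GC box motif GGGCGG and 1 CACCC match. A CACCC match is common, present in 57.5% of 32851 RefSeq promoter windows, against 35.7% for the GC box, 13.6% for the TATA box and 11.2% for the GATA motif, each of these being a match of letters and not a shown binding site. Of the 10 genes 7 had a promoter in the table. Among these, the CACCC box was found in 6, the GATA motif in 3, the TATA box in 2 and the GC box in 2. The forkhead motif TGTTTAC, which 3.65% of all windows hold, and the AP-1 motif TGANTCA, which 7.81% hold, were found in 0 of the 7. In the gene order of the reference, Krt8 and Krt18 are neighbouring protein-coding genes read away from each other.

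Values are the authors' linear intensities, scaled to a 2%-trimmed mean of 1500.0 on every array. Median intensities were 211.7 to 249.4 on male arrays, against 184.4 to 206.6 on female arrays. The Y-linked Eif2s3y read 4109 to 6136 in males and 31.1 to 70.9 in females. Xist, made from the inactive X chromosome, read 230.0 to 620 on 3 male arrays and 32465 to 35816 on the female arrays, but 16036 on male replicate 3, so the results of the called members are also given without that array. Eif2s3y was at the male level on it (5571), and what the Xist signal there stands for was not tested. A control probe set moved with sex too. The 18S ribosomal RNA control read 21050 to 33634 in males and 8332 to 18926 in females, with no overlap (p = 0.0286 in a two-sided exact permutation test, and 0.0514 adjusted over 9 array measures). With 4 against 4 arrays that test can give no p-value below 0.0286. Whether the 18S signal reflects the tissue or the handling of the RNA was not tested. The 3′ over 5′ signal ratio of the Gapdh control, a measure of RNA integrity, was 14.4 ± 1.94 in males and 16.6 ± 3.15 in females (SD, n = 4 each, exact permutation p = 0.257). That of the beta-actin control was 6.97 ± 1.82 in males and 7.38 ± 0.86 in females (exact permutation p = 0.686). Both ratios varied between arrays of the same sex. Differences are male minus female of log2(intensity + 16) with their SE (standard error) from limma, and on this scale the change of dim genes is understated. Values of different probe sets are not comparable as levels, since each has its own binding strength.

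Of the 16 probe sets, 11 of 6 genes (Krt7, Krt8, Krt18, Krt19, Upk1b and Upk2) had a mean log2 value at or above the median of the array (7.77) and were tested, and 5 of 4 genes (Krt20, Upk1a, Upk3a and Upk3b) lay below it. Krt8, Krt18 and Upk1b were lower in males and 0 members were higher. In probe sets, 7 of 11 were called lower in males at a limma adjusted p under 0.05, where 40.5% of all 22519 tested probe sets were called, 21.9% lower and 18.7% higher. The male and female ranges did not overlap for the same 7, with the male values below the female ones, as was the case for 21.2% of all tested probe sets. The median difference of the 11 was -0.66, beside -0.01 over all tested probe sets. Most of the 11 read Krt8 or Upk1b, so they do not stand for separate genes. By gene, on the brightest probe set, 3 of 6 were called lower, beside 28.2% of all 11489 tested genes. The median difference by gene was -0.56 for the members, beside -0.12 over all tested genes. Without male replicate 3 the count of probe sets called lower was 6. It was 0 with the 18S level as a covariate, where 0.724% of all probe sets were called lower. The 18S ranges of the sexes were apart, so this covariate and sex cannot be fully told apart. With it the SE rose from 0.19 to 0.30 for Krt8 on 1420647_a_at and from 0.16 to 0.29 for Krt18. Because RNA came from whole tissue, fewer cells of a type and less RNA per cell cannot be told apart.

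**Figure D1:**
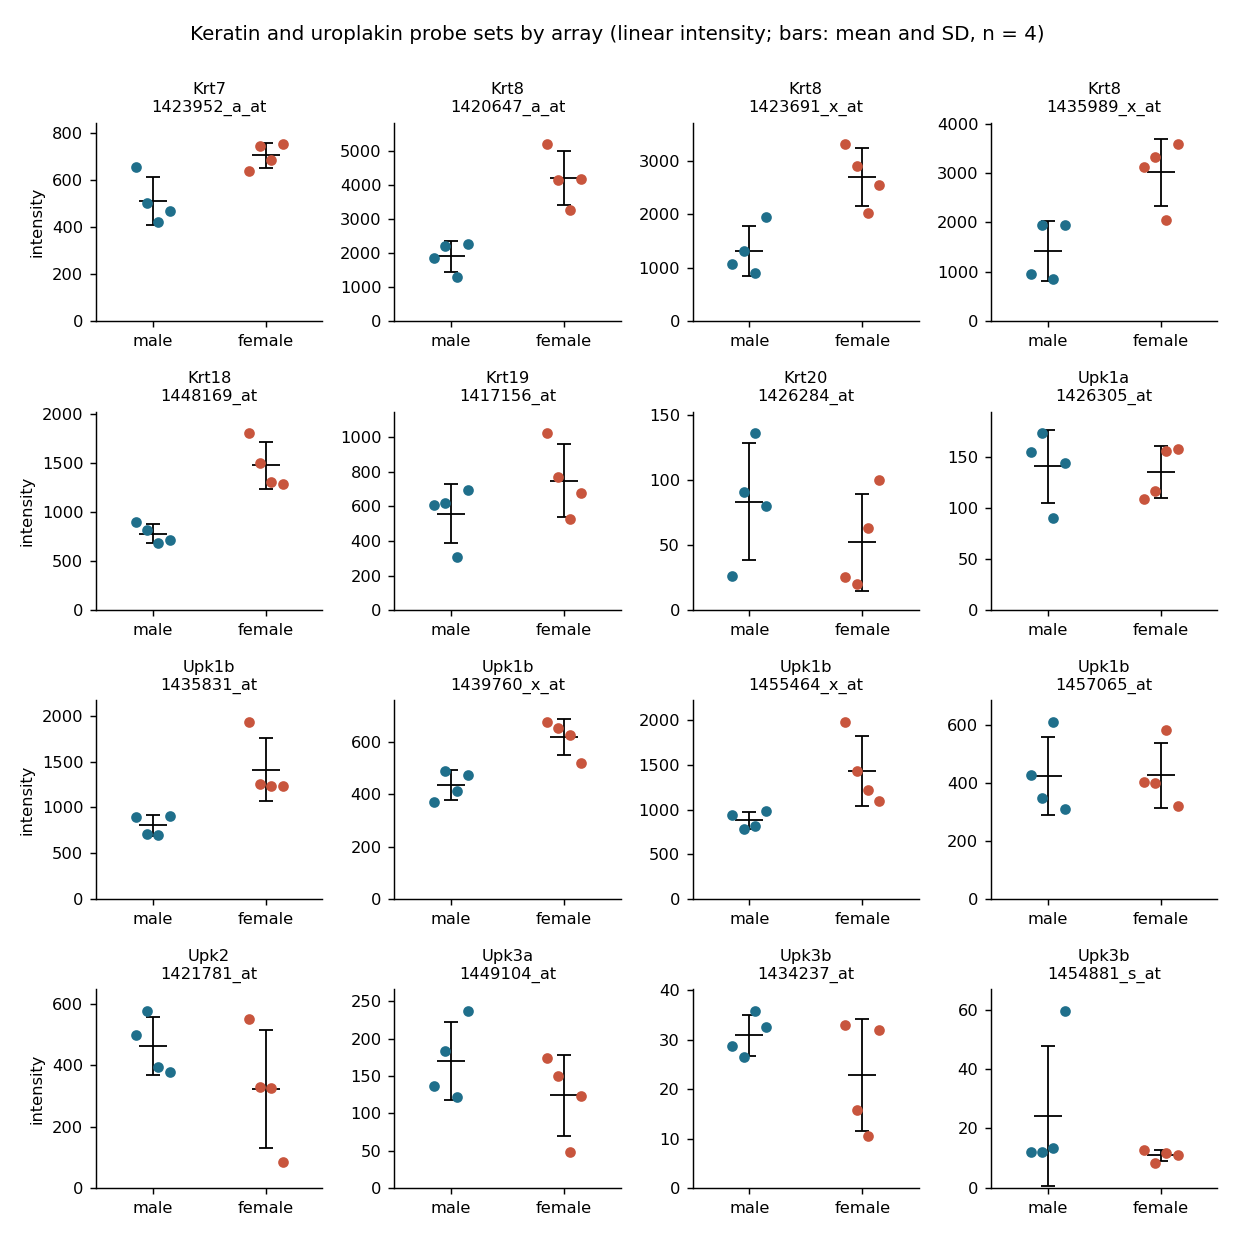
Linear intensity (y axis, from 0, its own scale in each panel) of all 16 probe sets on 4 male and 4 female arrays. Points are arrays, and bars are the mean and SD. The 3 probe sets of Krt8, that of Krt18 and 3 of the 4 of Upk1b have all male points below all female points, while the panels of Krt20, Upk1a, Upk2, Upk3a and Upk3b overlap.

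Krt8, the type II chain of the pair, was read by 3 probe sets. On 1420647_a_at the intensities were 1856, 2191, 1283 and 2253 in males, against 5195, 4136, 3249 and 4179 in females. The highest male array stayed below the lowest female array, and male replicate 3 was the lowest of all. The mean was 1896 ± 444 in males and 4189.7 ± 795 in females (SD, n = 4 each), a ratio of 0.452 and a difference of -1.15 ± 0.19 (limma adjusted p = 0.000715). The 2 other Krt8 probe sets have the suffix _x_at, which marks probes that may also bind other transcripts. On 1423691_x_at the values were 1065, 1317, 901 and 1961 in males, against 3322, 2912, 2031 and 2548 in females (-1.07 ± 0.23, limma adjusted p = 0.00301). On 1435989_x_at they were 952, 1942, 858 and 1958 in males, against 3127, 3323, 2043 and 3593 in females (-1.14 ± 0.28, limma adjusted p = 0.00649). On all 3 probe sets male replicates 1 and 3 were the lowest arrays. These were also the male arrays with the higher 18S signal, 28985 and 33634, against 23299.5 and 21050.2 on male replicates 2 and 4. The part of the 18S signal in the Krt8 difference was not tested beyond the covariate.

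Krt18, the type I partner of Krt8, has 1 probe set, 1448169_at, with 897, 815, 679 and 717 in males and 1807, 1496, 1309 and 1284 in females. Here the male arrays lay close together, in a span of 679 to 897. The mean was 777 ± 98.5 in males and 1474 ± 241 in females (SD, n = 4 each), a ratio of 0.527 and a difference of -0.90 ± 0.16 (limma adjusted p = 0.00112). Without male replicate 3 the difference was -0.98 for Krt8 on 1420647_a_at and -0.84 for Krt18, and both stayed called (limma adjusted p = 0.00164 and 0.00422). With the 18S covariate Krt8 differed by -0.66 ± 0.30 and Krt18 by -0.71 ± 0.29, and neither passed (limma adjusted p = 0.23 and 0.188).

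Krt7, the other type II keratin, missed the threshold. Its probe set read 653, 502, 420 and 467 in males, against 635, 742, 684 and 752 in females. The ranges overlapped because male replicate 1 lay above female replicate 1. The mean was 510.3 ± 101 in males and 703 ± 54.5 in females, a difference of -0.47 ± 0.18 (limma adjusted p = 0.0506). It passed in 1 of the 8 fits that each left out an array, that without male replicate 1 (-0.59, limma adjusted p = 0.0137). Without male replicate 3 it was -0.38 and with the 18S covariate -0.62, and neither passed (limma adjusted p = 0.122 and 0.299).

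Krt19, a type I keratin that lacks the tail domain of other keratins, read 606.5, 621, 310 and 695 in males and 1026, 768, 527 and 679 in females. The ranges overlapped, with male replicate 3 the lowest and female replicate 1 the highest array. The means were 558 ± 170 in males and 749.8 ± 209.5 in females, and the difference of -0.44 ± 0.27 did not pass (limma adjusted p = 0.208). It was -0.18 without male replicate 3 (limma adjusted p = 0.545). After each sex mean was taken off, Krt19 followed the brightest Krt8 probe set from array to array, with a Pearson r of 0.97 over 8 arrays that share labelling and scaling. With the 2 other Krt8 probe sets r was 0.83 and 0.69. Among all tested genes only Sfrp1 (r = 0.98), a secreted Wnt inhibitor, and Snap47 (r = 0.97), a SNARE protein, came closer to the brightest Krt8 probe set. The genes closest to Krt18 in the same measure were Cenpv (0.99), Papola (0.99), which encodes a poly(A) polymerase, and Fam162a (0.98), while Krt18 gave 0.59 with the brightest Krt8 probe set and 0.30 and 0.09 with the others. With 8 arrays and 22519 probe sets to choose from, such values are a description.

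Krt20, the type I keratin of gut and of the superficial urothelium, lay below the filter. It read 26.4, 91.1, 136 and 79.8 in males, against 25.6, 19.8, 63.3 and 100.1 in females. The ranges overlapped, and in the fit without a filter, where 19.4% of 45037 probe sets were called, its difference was 0.57 ± 0.48 (limma adjusted p = 0.468).

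Upk1b, the tetraspanin that pairs with Upk3a or Upk3b, was the called uroplakin. On 1435831_at it read 896, 715, 701 and 911 in males, against 1936, 1260.4, 1232 and 1229 in females. Female replicate 1 stood far above the other female arrays, and all male arrays lay below 1229. The mean was 806 ± 113 in males and 1414.5 ± 348 in females, a difference of -0.78 ± 0.18 (limma adjusted p = 0.00519). It was -0.62 without female replicate 1, and still passed (limma adjusted p = 0.0155). The brightest probe set, 1455464_x_at, read 937.5, 788, 818.5 and 982 in males and 1984.5, 1438, 1218.5 and 1093 in females (-0.66 ± 0.19, limma adjusted p = 0.0145). These 2 probe sets were made from the same sequence record and moved together over the arrays, so they are close to a repeat of 1 measurement.

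The 2 remaining Upk1b probe sets gave different answers. On 1439760_x_at the values were 368, 489.9, 411 and 473 in males, against 676, 650.3, 625 and 519.9 in females (-0.49 ± 0.17, limma adjusted p = 0.0384). This call ended without any 1 of 5 arrays, with a highest limma adjusted p of 0.0974 (without female replicate 1). On 1457065_at the values were 427, 346, 609.5 and 310.5 in males and 403, 398, 583 and 319 in females, a difference of -0.02 ± 0.25 (limma adjusted p = 0.952). Replicate 3 of each sex was the highest of its group there, in contrast to Krt8. With the 18S covariate the difference of 1435831_at was -0.32 and that of 1455464_x_at -0.30, and neither passed (limma adjusted p = 0.576 and 0.637). Without male replicate 3 they were -0.72 and -0.63, and both passed (limma adjusted p = 0.0171 and 0.0378).

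Upk2, the single-span partner of Upk1a, was the only other uroplakin above the filter. It read 498, 577.5, 394 and 376 in males, against 552, 328, 325 and 82.8 in females. Female replicate 4 was the lowest array and female replicate 1 lay inside the male range. The means were 461.5 ± 94.2 in males and 322 ± 192 in females, and the difference of 0.72 ± 0.42 did not pass (limma adjusted p = 0.187). It was 0.22 without female replicate 4 and 1.06 without female replicate 1, not called in either case (limma adjusted p = 0.519 and 0.0606).

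The other uroplakins were dim in both sexes. Upk1a, the tetraspanin partner of Upk2, read 155, 174, 90.0 and 145 in males, against 109, 117, 157 and 158 in females, a difference of 0.04 ± 0.28 in the fit without a filter. Upk3a, whose loss in mice disturbs the urinary tract, read 137, 183, 122 and 237 in males and 174.5, 149, 48.6 and 123 in females (0.48 ± 0.38). For both genes the ranges overlapped, with male replicate 3 the lowest male array. Upk3b, which is also made by the mesothelium, read 28.7, 26.6, 35.9 and 32.5 in males, against 33.0, 15.7, 10.5 and 32.0 in females on 1434237_at (0.32 ± 0.26). On 1454881_s_at it read 12.09, 12.02, 13.44 and 59.62 in males and 12.83, 8.52, 11.8 and 11.04 in females (0.43 ± 0.32), where the highest array after male replicate 4 was at 13.44. Of the 5 probe sets below the filter, 0 were called in the limma fit without a filter, and 0 had an unadjusted p under 0.05 (limma adjusted p between 0.398 and 0.949).

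**Figure D2:**
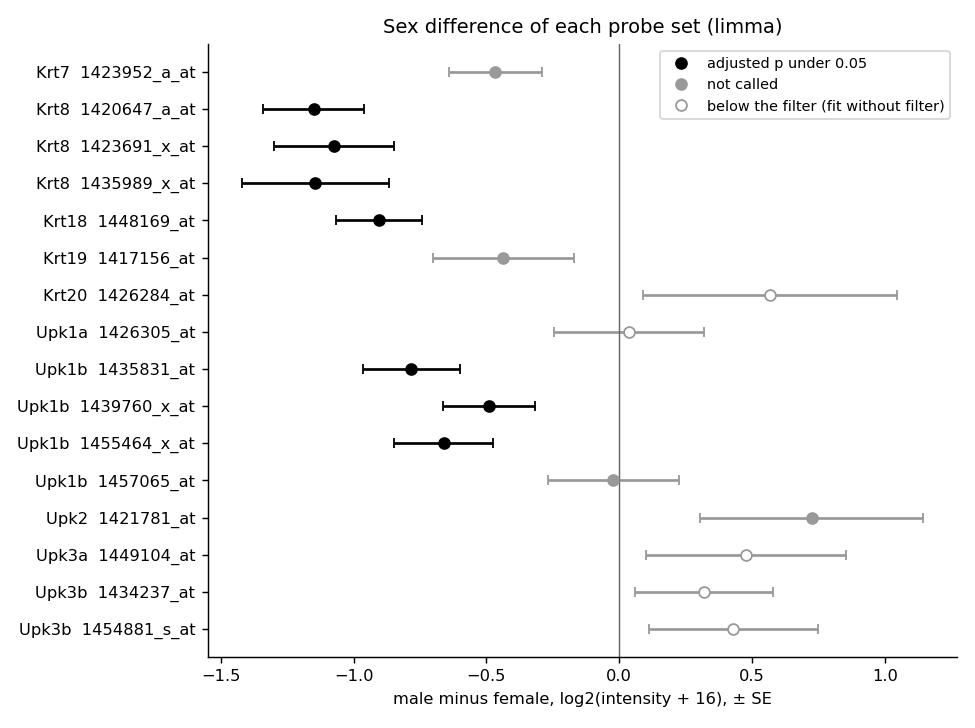
Male minus female difference of log2(intensity + 16) on the x axis for each of the 16 probe sets, with bars of 1 SE from limma. Black points passed an adjusted p under 0.05, grey points did not, and open points lay below the filter and come from the fit without it. The 7 called differences run from -1.15 to -0.49, all on the side of lower male values.

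Of the general epithelial genes, most were not called. This list, like the others below, was chosen with earlier results of these data known. Cdh1, the adhesion molecule E-cadherin, had 5059 ± 301 in males and 5322 ± 381 in females (-0.07 ± 0.10, limma adjusted p = 0.575). Epcam, an epithelial cell surface protein, had 11531 ± 562 in males and 11356 ± 831 in females (0.02 ± 0.08, limma adjusted p = 0.834). Within the list, 14 genes were tested, and males had 0 of them higher and 3 lower: Cldn6, a tight junction protein (-1.07 ± 0.29), St14, a membrane protease (-0.66 ± 0.19), and Esrp2, a splicing factor (-0.65 ± 0.19), of which a dimmer probe set had the opposite sign and did not pass. None of these 3 calls held with the 18S covariate or its middle probe set. With its 5′ probe set only Esrp2 of the 3 stayed called, and without female replicate 3 only Cldn6. Cldn6 and Esrp2 also lost their calls without male replicates 1 and 3 together, and Esrp2 without female replicate 2. The median difference of the list was -0.12, the same as over all 11489 tested genes (-0.12), of which 14% were called higher and 28.2% lower. The summed intensity of the list was 39517 to 43199 in males and 44955 to 46239 in females, without overlap (exact permutation p = 0.0286, adjusted 0.0514). Among the bright genes of this sum, Spint2 (-0.24 ± 0.10) and Esrp1 (-0.15 ± 0.11) were not called (limma adjusted p = 0.0678 and 0.306).

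Ratios within an array set the members beside Cdh1 and Epcam, a choice made after the values were seen. Both differed by near 0 between the sexes, so these ratios stay close to the members' own differences, and they do not compare the members with the genes of the list that were lower in males, such as Cldn6 and St14. The log2 ratio of Krt8 to Epcam was -2.55, -2.46, -3.11 and -2.38 in males, against -0.98, -1.55, -1.78 and -1.50 in females. All male ratios lay below all female ratios, and the difference was -1.18. The ratio of Krt8 to Cdh1 differed by -1.08, those of Krt18 by -0.83 to Cdh1 and -0.93 to Epcam, and those of Upk1b on its brightest probe set by -0.59 to Cdh1 and -0.68 to Epcam. For each of these 6 ratios the ranges did not overlap (two-sided exact permutation p = 0.0286, the lowest value possible with 4 arrays a sex, and 0.0357 adjusted over 10 ratios). Within the pair, the log2 ratio of Krt8 over Krt18 averaged 1.24 ± 0.34 in males and 1.49 ± 0.16 in females, and the difference of -0.25 did not pass (exact permutation p = 0.257, adjusted 0.257). Krt8 fell relative to Krt19 by 0.72 on the log2 scale (exact permutation p = 0.0286, adjusted 0.0357) and differed by -0.69 from Krt7, which did not pass (exact permutation p = 0.0571, adjusted 0.0635). The log2 ratio of Upk1b over Upk2 averaged 0.93 ± 0.38 in males and 2.31 ± 0.79 in females, a difference of -1.38 (exact permutation p = 0.0286, adjusted 0.0357). Female replicate 4, the lowest array for Upk2, had a ratio of 3.49, against 1.82 to 2.08 on the other female arrays. The difference of Upk2 itself was not called. Without male replicate 3 the 10 ratios kept their direction, and that of Krt8 differed by -0.90 to Cdh1 and -1.01 to Epcam.

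**Figure D3:**
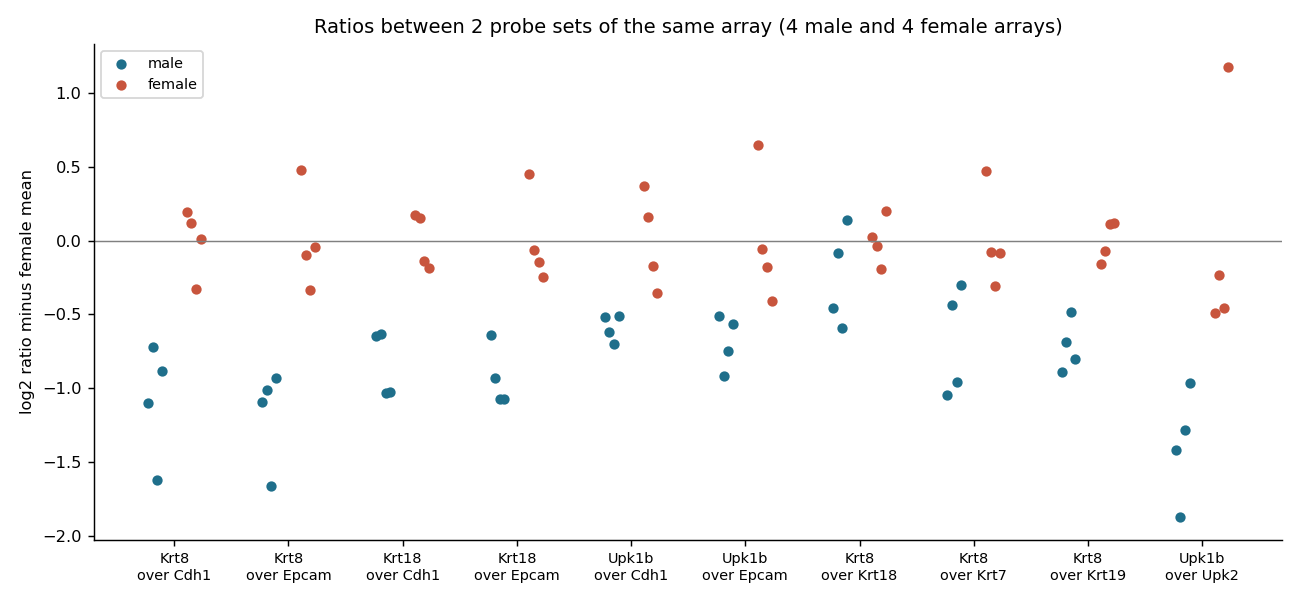
Log2 ratio between 2 probe sets of the same array, minus the mean female ratio (y axis), for 10 gene pairs. Points are arrays, male to the left of female in each pair. Male and female points are separate for the 6 ratios to Cdh1 and Epcam, for Krt8 over Krt19 and for Upk1b over Upk2, and overlap for Krt8 over Krt18 and Krt8 over Krt7.

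The keratins of stratified epithelia did not move in 1 direction. Krt5, the type II chain of basal cells, had 4406 ± 609 in males and 7405 ± 1050 in females (-0.75 ± 0.13, limma adjusted p = 0.00102). Its type I partner Krt14 had 3168 ± 564 in males and 6063 ± 1361 in females on its brightest probe set (-0.92 ± 0.17, limma adjusted p = 0.00161), and 1 of its 2 other probe sets was also called lower. Krt10, the type I chain of differentiating epidermis, rose to 9372 ± 927 in males, against 3677 ± 725 in females (1.36 ± 0.14, limma adjusted p = 6.78e-05). Of 8 tested genes of this list 1 was higher, 2 were lower and 5 did not pass, beside 14% higher and 28.2% lower of all tested genes. The median was -0.32. With the 18S covariate Krt5 (-0.58) and Krt14 (-0.88) no longer passed, while Krt10 stayed called.

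Regulators of urethral and urothelial epithelium were mostly not called. Shh, the signal of the urethral plate, had 18737 ± 2621 in males and 24552 ± 2826 in females (-0.39 ± 0.11, limma adjusted p = 0.0112). This call was lost with the 18S covariate (-0.11), with each of its 2 other probe sets, and without male replicates 1 and 3 together. Foxa1 (0.20 ± 0.19) and Gata3 (0.06 ± 0.19), transcription factors of endodermal and urothelial cells, did not pass (limma adjusted p = 0.429 and 0.819). Trp63, the basal cell factor, rose to 22769 ± 2033 in males, against 16306 ± 1322 in females (0.48 ± 0.08, limma adjusted p = 0.00109), as did Tfap2c (0.43 ± 0.14) and the receptor gene Fgfr2 (0.25 ± 0.07), while 2 dimmer Tfap2c probe sets had the opposite sign without passing. With the 18S covariate none of these 3 passed. Fgfr2 also missed the threshold without female replicate 1, and Tfap2c without any 1 of 5 arrays, male replicate 3 among them. Klf5 was uncalled on its brightest probe set (limma adjusted p = 0.0555) and called higher on another. In this list 3 of 11 tested genes were higher and 1 was lower in males, beside 14% and 28.2% of all tested genes. The median was 0.20.

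Of 11 tested genes for proteins that anchor keratin filaments, males had 4 lower and 0 higher, beside 28.2% and 14% of all tested genes. The median was -0.16. The 4 were the desmosome genes Jup (-1.11 ± 0.19) and Pkp2 (-1.07 ± 0.20) and the plakin genes Plec (-0.64 ± 0.15) and Dst (-0.61 ± 0.13). With the 18S covariate none of the 4 passed (-1.04, -0.71, -0.47 and -0.51). These counts are for the brightest probe set of each gene. The dimmer probe sets of Plec, Pkp2 and Dst were also below 0, without passing, while Dsp, uncalled on its brightest probe set (0.17 ± 0.07, limma adjusted p = 0.0738), was called higher on its other one (0.316). Of 7 tested tetraspanins related to Upk1a and Upk1b, 1 was higher (Tspan8, 0.96 ± 0.23) and 1 was lower (Cd81, -0.25 ± 0.07). Over all tested genes these shares were 14% and 28.2%. The other 5 tetraspanins did not pass. One of these 5, Cd151, was at 0.33 ± 0.23 on its brightest probe set, while 3 of its 4 other probe sets were called lower. The call of Cd81 was lost with each of the 3 18S probe sets as a covariate, and that of Tspan8 with the 18S covariate (0.91).

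**Figure D4:**
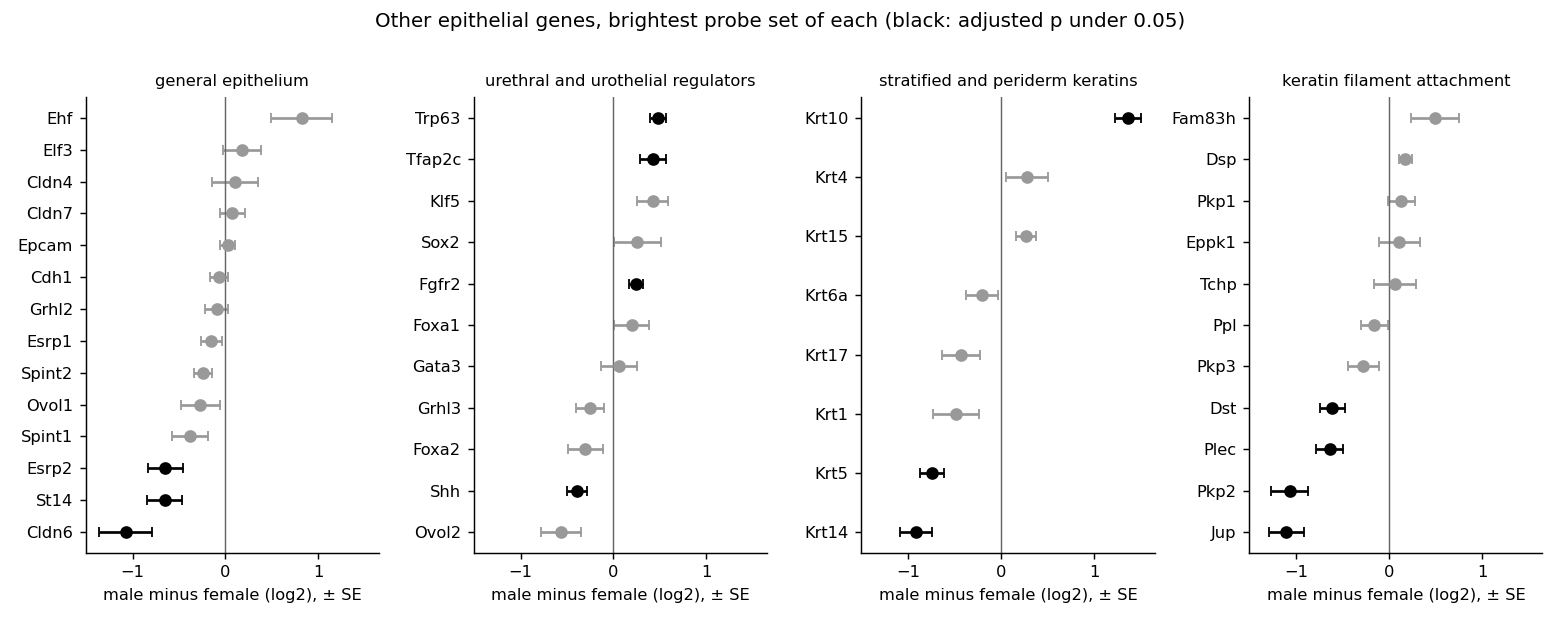
Male minus female difference (x axis, log2, bars of 1 SE from limma) of every tested gene in 4 lists of epithelial genes, each by its brightest probe set. Black points passed an adjusted p under 0.05. Cdh1 and Epcam lie near 0, Krt14, Krt5, Jup and Pkp2 lie to the left and Krt10 to the right.

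Of the other cell types that could be in the dissected region, skeletal muscle differed most clearly by sex. Skeletal muscle genes were higher in males for 6 of 8 and lower for 0, beside 14% and 28.2% of all tested genes. Among the 6 were Myh3 (1.47 ± 0.31), Chrna1 (1.18 ± 0.17), Acta1 (1.17 ± 0.35) and Ttn (1.13 ± 0.27). With the 18S covariate only Myh3 and Ttn stayed called. Acta1 also lost its call without male replicate 1 and without male replicate 2. The summed intensity of the muscle list was 11962 to 19028 in males, against 3920 to 9255 in females (exact permutation p = 0.0286, adjusted 0.0514). The mesenchyme list had 2 genes higher and 3 lower of 10, beside 14% and 28.2% of all genes, with Pdgfrb at -0.87 ± 0.14, Lum at 0.57 ± 0.14, Col1a1 at 0.47 ± 0.11 on its brightest probe set, where another was called lower, and Vim at -0.39 ± 0.07, where 2 others had the opposite sign. With the 18S covariate none of the mesenchyme calls held. The summed intensity of that list was 200148 to 210922 in males and 206195 to 225333 in females, which overlapped (exact permutation p = 0.114, adjusted 0.171). Of 6 hindgut genes, which mark an epithelium that also makes Krt20, only Lgals4 was tested, and it was higher in males (0.74 ± 0.21), a call that was lost with quantile normalization and with the 18S covariate. The others were dim: Cdx1 read 5.24 to 7.59 in males and 4.88 to 7.88 in females, and Vil1 3.4 to 22.04 in males and 3 to 9.78 in females. Cdx2 read 46.8 to 176 in males and 7.42 to 72 in females, and Hnf4a 123.5 to 157 in males and 66.2 to 139.8 in females. Cdh17 read 20.1 to 102.2 in males and 6.09 to 189.5 in females. Without a filter, 2 genes of the list were called higher in males, where 19.4% of all probe sets were called. The summed list was 566 to 705 in males and 303 to 513.5 in females (exact permutation p = 0.0286, adjusted 0.0514). Median array intensity was also higher in males, at 211.7 to 249.4 against 184.4 to 206.6. Its part in the sum of these dim genes was not tested. Of 7 mesothelial genes besides Upk3b, 3 were tested, and Gpm6a was higher in males (0.97 ± 0.14). This call was lost with the 18S covariate (1.08, limma adjusted p = 0.0574). Msln, a defining mesothelial marker, was below the filter with 16.04 to 53.11 in males and 18.07 to 59.12 in females. Wt1 was also below it, with 169 to 208.5 in males and 17.1 to 52.7 in females. Without a filter, 2 genes of the list were called higher in males. The summed list was 8513 to 10527 in males and 7834 to 9013 in females (exact permutation p = 0.229, adjusted 0.289). That sum (mean 9400 in males) came mostly from Bnc1 and Podxl (means 3850 and 4021 in males), so it says little of the dim genes. The part of these cell types in the differences of the keratins and uroplakins was not tested.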

How the data were processed

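Per the labels, RNA from each tubercle went through 2 amplification rounds before biotin labelling and hybridization. The authors deposited 1 linear intensity per probe set, computed with GCOS per the submitters' processing notes, and its settings are not given in the sources used here. Each column had a 2%-trimmed mean of 1500.0, so values were not normalized again. Sexes come from the sample titles. Gene names come from the platform annotation, and all 10 members matched the RefSeq gene table. Values were taken as log2(intensity + 16). The 64 control probe sets were left out, and the 22519 probe sets with a mean at or above the median were tested with limma (version 3.58.1, R version 4.3.3): eBayes with a trend, sex as the only term, Benjamini-Hochberg over all tested probe sets, threshold 0.05. Each other gene was read on its brightest probe set. No 2 of the 8 arrays held identical values. The fit was checked on simulated data. Array measures and ratios were compared with exact permutation tests. The number of arrays limits the precision. The members, lists, naming rule (all members, up to 4 called genes of a list with the largest differences, 8 fixed epithelial genes, and the 3 genes most like Krt8 and Krt18) and alternatives were chosen with earlier results of these data known. Alternatives changed the normalization (quantile), the pseudocount (1 or 64), the filter (none, or the upper quartile), the variance model and the weights, added the replicate number or the 18S signal as a term, or left out arrays. The ratios and 2 other 18S probe sets as covariates were added after seeing the data.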

Additional observations from a re-analysis of the deposited data

Results flagged for a closer look

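In 2 of the 32 groups of 4 arrays formed by the 16 probe sets and the sexes, an array stood apart from the other 3 by Dixon's test, which marks about 1 in 20 groups by chance. Upk1b on 1435831_at read 1936 on female replicate 1, against 1229 to 1260.4 on the other female arrays. Upk3b on 1454881_s_at read 59.6 on male replicate 4, against 12.02 to 13.44 on the other male arrays.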

How the results depend on the processing

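The count of member probe sets called lower in males was 7, and it was 5 to 8 under every alternative except 2: 3 with the upper-quartile filter, which left only the Krt8 probe sets tested, and 0 with the 18S covariate. The count called higher was 0 under every alternative. Leaving out each array gave 6 to 7 lower calls. The 18S covariate ended the calls of Krt8 (-0.66), Krt18 (-0.71) and Upk1b (-0.30 on the brightest probe set), and turned the uncalled difference of Krt19 to 0.20. With the middle and 5′ 18S probe sets instead, Krt8 and Krt18 stayed called, and Upk1b missed the threshold on its brightest probe set (-0.61 and -0.62) and passed on 1435831_at (-0.66 and -0.68). The cause was not tested. Krt7 passed with quantile normalization (-0.54), without a trend (-0.47), with array weights (-0.50) and without male replicates 1 and 3 together (-0.52). Leaving out each array gave Krt7 -0.59 to -0.38, Krt8 -1.27 to -0.98, Krt18 -0.98 to -0.80, the brightest Upk1b probe set -0.78 to -0.49, Krt19 -0.59 to -0.18, Upk2 0.22 to 1.06 and Upk1b 1457065_at, which was near 0, -0.21 to 0.14. Krt8 over Krt7 reached an exact permutation p of 0.0286 with a pseudocount of 64 (-0.70). Over all probe sets, 4206 were called higher and 4922 lower in males. The upper-quartile filter, with fewer probe sets tested, gave 2476 higher and 3414 lower, the 18S covariate 251 and 163, and its middle probe set 2748 higher. Over all lists, 15 genes were higher and 14 lower, against 7 and 8 with the upper-quartile filter, 3 and 0 with the 18S covariate (Krt10, Myh3 and Ttn kept their calls), 9 lower with its middle probe set, and 14 and 15 without male replicate 3. The replicate numbers were not taken as pairs. Deviations of same-numbered arrays correlated at -0.13, -0.08, 0.04 and -0.03, against -0.20 to 0.21 for arrays with different numbers. These values cannot show whether embryos shared a litter or a processing day. With the replicate number as a block, 6 member probe sets were called, Krt8 differed by -1.15 and Krt18 by -0.90, and Upk1b 1439760_x_at missed the threshold. Dim probe sets and 4 arrays a sex limit what can be said of Krt20, Upk1a, Upk3a and Upk3b.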
